A study of Homo sapiens with 6 samples.

Results

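The genes described here are 59 protein-coding genes of the distal short arm of human chromosome 7, from FAM20C near the tip to DPY19L1, followed in SiHa cells given a plasmid for a circular RNA. They were taken from a table of 35544 loci by gene symbol, and of several rows with the same symbol the one of highest mean was kept. The 59 symbols stand on 57 rows, because SUN1 and GET4 share 1 row and DAGLB and KDELR2 share another. SiHa is an established line from a human cervical squamous carcinoma. Cells were transfected with a plasmid for hsa_circ_0005358 (3 libraries, called circ_0005358 here) or with a vector plasmid (3 libraries) and collected after 72 h, and polyA RNA was sequenced to look for mRNAs downstream of the circular RNA. Both groups were therefore transfected, and untransfected cells are not among the 6 libraries. Whether the replicates were separate cultures is not in the labels, and the p-values therefore reflect the spread among 6 libraries, part of which may be technical. The plasmid's RNA is named hsa_circ_0005358 in the sample labels and hsa_circ_000538 in the treatment text.

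A block of neighbouring genes on a chromosome arm usually shares no pathway. What its members share is their DNA: the copy number of the arm, its time of replication and its large chromatin domains act on neighbours together, while each promoter and each mRNA's stability act on genes one by one. The distal short arm of chromosome 7 holds several genes that every cell uses, among them ACTB, the gene of cytoplasmic beta-actin, RAC1, a small GTPase that drives membrane ruffling, and CBX3, which encodes heterochromatin protein 1 gamma. In carcinoma lines the arm is also known for IGF2BP3, an oncofetal RNA-binding protein gene, and for the HOXA cluster.

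The stretch was picked because neighbouring loci on it had low fold changes in circ_0005358 over vector, the only contrast of the study. Its fold changes in that contrast are therefore a description, and the calls below support nothing about the stretch as a whole. Levels are given in FPKM, which corrects for transcript length and for the size of the library. A row was tested if it reached 1 FPKM in at least 3 of the 6 libraries, and fold changes are differences of log2(FPKM + 1), which understate the change of low genes. A gene is said to have fallen or risen if limma's adjusted p over all 10295 tested loci was under 0.05.

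In all, 53 member rows, which carry 55 of the 59 symbols, were tested. CHST12, a sulfotransferase gene, ICA1, an islet autoantigen gene, ETV1, an ETS transcription factor gene, and MACC1, a regulator of MET expression, lay below the filter. Just outside it, MACC1 and CHST12 had a third-highest library of 0.428 and 0.371 FPKM. Just inside it, GNA12, a G protein alpha subunit gene, and GGCT, an enzyme gene of the glutathione cycle, had a third-highest library of 1.196 and 1.599 FPKM. The rows of MACC1 and GGCT also carry the names of other loci, so these levels are not those of MACC1 or GGCT alone. ETV1 did not exceed 0.0219 FPKM in any library, and ICA1 did not exceed 0.044 FPKM.

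The libraries with circ_0005358 listed 23227 to 23823 loci above 0, against 23764 to 27803 in the vector libraries, where vector replicate 3 had the most. Judged by what a single fragment was worth at single-transcript loci, depth was 71.1% of the deepest library for circ_0005358 replicate 2, and 93.5% to 100% for the other 5 libraries. The rows of all 5 keratin markers of the line reached 1 FPKM in some library, with sums of 621 to 701 FPKM with circ_0005358 and 1279 to 1354 FPKM with vector. KRT7, KRT8, KRT17 and KRT18 fell with circ_0005358. KRT19 shares its row with KRT9, KRT14 and KRT16, so its own level is not known, and that row did not pass. Of 3 endothelial and 2 erythroid markers, 0 reached 1 FPKM in any library, and the endothelial sums were 0.335 to 0.371 FPKM with circ_0005358 and 0.253 to 0.599 FPKM with vector. LUM alone among 4 fibroblast markers did, with sums of 1.65 to 2.11 FPKM with circ_0005358 and 6.93 to 10.2 FPKM with vector. CD14 alone among 4 leukocyte markers did, with sums of 1.45 to 16.4 FPKM with circ_0005358 and 10.4 to 13.3 FPKM with vector, while PTPRC, the common leukocyte antigen gene, stayed at or below 0.0605 FPKM. Their part in the values below was not tested, and in such bulk libraries fewer cells of a type and less RNA per cell cannot be told apart.

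Of the 53 member rows, 6 passed the threshold, IGF2BP3, FAM20C, TAX1BP1, ZDHHC4 and PMS2 lower and TNRC18 higher with circ_0005358. Of the member rows 11.3% were called, beside 11.4% of all tested loci. By direction 5 rows (9.43%) fell, beside 4.96% of all tested loci, and 1 (1.89%) rose, beside 6.41%. Leaving out any 1 library left 2 or 3 member rows called lower and 0 to 2 called higher. The count of lower calls was 2 without vector replicates 1 or 2 and 3 without vector replicate 3 or circ_0005358 replicates 1, 2 or 3. The count of higher calls was 0 without vector replicates 1 or 2 and 2 without vector replicate 3.

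The promoters of 4 of the 6 called genes are shown, 3 that fell and the 1 that rose, because the members lie together yet differ in direction. These are RefSeq windows on GRCh38 from 250 bases before to 50 after a start. Capitals mark GC boxes, spelled GGGCGG, E-boxes, spelled CACGTG, and CCAAT boxes, which bear the letters of their motif, each searched on both strands. The windows lie at chr7:23470442-23470741 on the minus strand for IGF2BP3, chr7:192321-192620 on the plus strand for FAM20C, chr7:6009057-6009356 on the minus strand for PMS2 and chr7:5423785-5424084 on the minus strand for TNRC18.
IGF2BP3: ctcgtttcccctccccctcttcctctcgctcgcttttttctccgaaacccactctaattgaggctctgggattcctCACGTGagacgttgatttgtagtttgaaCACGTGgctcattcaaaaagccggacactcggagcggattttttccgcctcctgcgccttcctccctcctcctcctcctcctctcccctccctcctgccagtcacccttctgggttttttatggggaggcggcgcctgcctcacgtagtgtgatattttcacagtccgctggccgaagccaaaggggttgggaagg
FAM20C: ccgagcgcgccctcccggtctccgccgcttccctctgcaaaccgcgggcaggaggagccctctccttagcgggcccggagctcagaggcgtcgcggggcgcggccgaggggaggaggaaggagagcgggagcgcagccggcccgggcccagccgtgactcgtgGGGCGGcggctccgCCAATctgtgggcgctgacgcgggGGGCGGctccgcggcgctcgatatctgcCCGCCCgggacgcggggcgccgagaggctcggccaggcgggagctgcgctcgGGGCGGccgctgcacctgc
PMS2: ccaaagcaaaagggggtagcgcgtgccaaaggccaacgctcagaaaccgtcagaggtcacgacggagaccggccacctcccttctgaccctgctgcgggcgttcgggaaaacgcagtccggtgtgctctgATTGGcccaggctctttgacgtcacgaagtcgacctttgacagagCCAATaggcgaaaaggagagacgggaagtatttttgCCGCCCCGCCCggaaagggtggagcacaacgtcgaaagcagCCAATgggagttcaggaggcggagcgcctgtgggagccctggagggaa
TNRC18: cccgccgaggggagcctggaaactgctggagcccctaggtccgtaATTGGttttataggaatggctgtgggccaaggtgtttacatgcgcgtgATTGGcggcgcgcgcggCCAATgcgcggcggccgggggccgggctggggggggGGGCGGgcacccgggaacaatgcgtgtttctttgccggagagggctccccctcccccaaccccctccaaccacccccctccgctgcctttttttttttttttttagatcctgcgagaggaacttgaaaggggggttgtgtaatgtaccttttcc

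The IGF2BP3 window holds 2 E-boxes and no GC or CCAAT box, while the FAM20C window holds 4 GC boxes and 1 CCAAT box. The PMS2 window holds 2 GC boxes, which overlap, and 3 CCAAT boxes, and the TNRC18 window holds 1 GC box and 3 CCAAT boxes. Over all 72 windows of the 43 members found in the RefSeq table, 63.9% held a GC box, against 67.6% of the 12190 windows of tested genes and 45% of all 35116 windows. CCAAT boxes stood in 34.7% of the member windows, 35.1% of those of tested genes and 34.6% of all, and E-boxes in 11.1%, 9.65% and 7.26%. For these 3 motifs the member windows were thus close to those of other tested genes. The TATA motif TATAAA, counted anywhere in a window on either strand, stood in 2.78% of the member windows, 6% of those of tested genes and 11.5% of all. The TNRC18 window holds 1 match, which lies on the opposite strand and reads TTTATA as printed. The AP-1 type motif TGANTCA stood in 6.94%, 4.95% and 7.71%, and the NRF1 motif in 11.1%, 10.6% and 5.78%, and the 4 printed windows hold neither.

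The role groups that follow were drawn with earlier results known, and over all tested loci 4.96% were called lower and 6.41% higher. Among the 8 genes of RNA binding and translation, IGF2BP3 fell and the other 7 did not pass the test. IGF2BP3 (ENSG00000136231, chromosome 7 from 23310209 to 23470467 on the GRCh38 minus strand) encodes a protein that binds mRNAs and extends their lifetime and is silent in most adult tissues. Its level was 1.09, 1.03 and 1.36 FPKM with circ_0005358, against 3.86, 3.94 and 4.23 FPKM with vector. Every circ_0005358 library thus lay well below every vector library. The means were 1.16 ± 0.178 FPKM with circ_0005358 and 4.01 ± 0.194 FPKM with vector (SD, n = 3 each), a ratio of 0.29. On the log2 scale the difference was -1.22 ± 0.0825 (standard error), with a limma adjusted p of 0.00125. This was the lowest fold change of all member rows. Its 3' end overlaps that of MALSU1, a mitochondrial ribosome assembly gene on the other strand, over 1521 bases, and the use of strand in counting is not given in the sources used here. MALSU1 had a log2 fold change of -0.04.

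The log2 fold changes of the other RNA and translation genes lay between -0.29 and 0.17. EIF3B, a core subunit of the translation initiation factor eIF3, stood at 21.0, 21.0 and 21.9 FPKM with circ_0005358 and at 23.2, 23.4 and 25.2 FPKM with vector, with a log2 fold change of -0.16 that did not pass the test. EIF2AK1, the heme-regulated kinase that phosphorylates eIF2 alpha, averaged 26.5 ± 1.73 FPKM with circ_0005358 and 28.7 ± 0.489 FPKM with vector (SD, n = 3 each). In both genes the groups did not overlap, but the gaps were small. BZW2, a regulator of start codon choice, had all circ_0005358 libraries above all vector libraries, at 13.9 to 14.8 FPKM against 12.2 to 13.0 FPKM, and did not pass. AIMP2, a scaffold of the aminoacyl-tRNA synthetase complex, and TRA2A, a splicing activator, had log2 fold changes of 0.08 and 0.02. LSM5, a subunit of the ring that guides mRNA decay and U6 snRNA, ranged from 4.21 to 9.23 FPKM with circ_0005358 and from 6.81 to 10.2 FPKM with vector.

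Among the 8 tested rows of secretory pathway and growth factor genes, FAM20C and ZDHHC4 fell and the other 6 did not pass limma's test. At an unadjusted p under 0.05, 3 were lower and 0 higher, beside 11.6% and 15.7% of all tested loci. FAM20C (ENSG00000177706, chromosome 7 from 192969 to 260745 on the plus strand) encodes the Golgi kinase that phosphorylates secreted proteins such as casein. It stood at 4.42, 4.37 and 4.44 FPKM with circ_0005358, against 9.27, 8.48 and 6.78 FPKM with vector. The 3 circ_0005358 libraries were nearly equal, and vector replicate 3 lay closest to them. The ratio of the means was 0.539 and the log2 fold change -0.75 (standard error 0.113, limma adjusted p = 0.0144). ZDHHC4, a palmitoyltransferase gene, stood at 7.42, 7.20 and 8.02 FPKM with circ_0005358 and at 9.77, 9.23 and 9.15 FPKM with vector, a small change with no overlap (log2 fold change -0.28, standard error 0.0627, limma adjusted p = 0.047).

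FKBP9, a prolyl isomerase gene of the endoplasmic reticulum, did not pass. It stood at 23.4, 22.9 and 33.5 FPKM with circ_0005358 and at 42.5, 32.8 and 42.6 FPKM with vector, and the groups overlapped because circ_0005358 replicate 3 lay above vector replicate 2 (log2 fold change -0.56, standard error 0.184). Its relative FKBP14 had 1 high library in each group, replicate 1, and is given with the rows of wide spread. PDGFA, a chain of platelet-derived growth factor, averaged 6.46 ± 2.74 FPKM with circ_0005358 and 7.45 ± 0.0544 FPKM with vector (SD, n = 3 each). DPY19L1, a C-mannosyltransferase gene, had a log2 fold change of -0.17. The row of SUN1, which ties the nuclear envelope to the cytoskeleton, and GET4, which hands tail-anchored proteins to their insertion machinery, had one of 0.05. The row of KDELR2, a receptor that returns proteins to the endoplasmic reticulum, and DAGLB, a lipase that makes an endocannabinoid, stood at 43.2, 39.8 and 42.1 FPKM with circ_0005358 and at 24.3, 23.9 and 42.9 FPKM with vector. Vector replicate 3 thus lay at the level of the circ_0005358 libraries, the row did not pass (log2 fold change 0.50, standard error 0.235, limma adjusted p = 0.248), and without that library its adjusted p was 0.00976, the lowest over its settings, with 0.533 the highest.

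Of the 11 tested rows of membrane traffic, lipid and autophagy genes, TAX1BP1 fell and 9 had negative log2 fold changes, with a median of -0.35. Over all tested loci 4.96% were called lower and 47% were negative. The group was drawn with earlier results known, so these counts only describe it. The row of DAGLB and KDELR2, given with the secretory pathway genes, is counted here as well. TAX1BP1 (ENSG00000106052, chromosome 7 from 27739331 to 27844564 on the plus strand) encodes an autophagy receptor that also restrains NF-kB signalling. It stood at 21.1, 18.6 and 21.4 FPKM with circ_0005358, against 27.0, 28.1 and 29.3 FPKM with vector. No library of one group reached the other group (log2 fold change -0.45, standard error 0.0738, limma adjusted p = 0.0194). TSPAN13, a tetraspanin gene, had a lower log2 fold change, -0.92, but did not pass (standard error 0.306, limma adjusted p = 0.124). It stood at 3.54, 8.24 and 3.33 FPKM with circ_0005358 and at 10.1, 9.20 and 9.90 FPKM with vector, so that circ_0005358 replicate 2 lay near the vector libraries. Without that library its adjusted p was 0.00452, the lowest over its settings, with 0.302 the highest.

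OSBPL3, a lipid transfer protein gene, came near the threshold. It stood at 5.49, 8.97 and 8.14 FPKM with circ_0005358 and at 12.3, 12.9 and 12.7 FPKM with vector, with no overlap (log2 fold change -0.70, standard error 0.168, limma adjusted p = 0.0563). SNX10, a sorting nexin gene, stood at 5.70, 6.22 and 5.77 FPKM with circ_0005358 and at 12, 12.8 and 4.6 FPKM with vector. Vector replicate 3 was the lowest of all 6 libraries, and without it the adjusted p was 0.00878, the lowest over its settings, with 0.683 the highest. CYTH3, an activator of ARF GTPases, stood at 2.64, 11.2 and 10.2 FPKM with circ_0005358 and at 9.63, 11.8 and 12.1 FPKM with vector. Its log2 fold change of -0.61 (standard error 0.488) was -0.05 without circ_0005358 replicate 1. AVL9, an exocytosis gene, and WIPI2, which binds the lipid of forming autophagosomes, had groups that did not overlap and log2 fold changes of -0.35 and -0.17. SNX13, AP5Z1, an adaptor complex subunit gene, and TMEM106B, a lysosomal protein gene, had log2 fold changes of 0.06, -0.08 and -0.11.

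None of the 6 tested rows of actin, GTPase and kinase signalling passed limma's test, and their median log2 fold change was 0.05. At an unadjusted p under 0.05 there were 0, beside 27.3% of all tested loci. These rows include the one that SUN1 shares with GET4, which is also counted with the secretory pathway genes. ACTB, the most abundant member, stood at 702, 798 and 724 FPKM with circ_0005358 and at 682, 653 and 707 FPKM with vector. The groups overlapped, and the log2 fold change of 0.12 (standard error 0.0668) kept its sign in all 16 other settings, at 0.03 to 0.16. RAC1 stood at 51.2, 32.4 and 68.1 FPKM with circ_0005358 and at 60.1, 28.8 and 29.7 FPKM with vector, an overlap of almost the whole range. PRKAR1B, a regulatory subunit of protein kinase A, IQCE, a ciliary gene of hedgehog signalling, and GNA12 had log2 fold changes of 0.05, -0.03 and -0.09. ACTB and RAC1 have many pseudogenes, and the annotation lists 10 and 9 that carry their names. The row that holds a pseudogene of RAC1 averaged 12.1 FPKM, and those that hold one of ACTB at most 0.0655 FPKM. A row can carry other genes too, so the pseudogene's own level is not known. The level of RAC1 is uncertain where reads could be split between copies.

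Of the 10 tested chromatin, DNA repair and transcription genes, PMS2 fell, TNRC18 rose and 8 did not pass. TNRC18 (ENSG00000182095, chromosome 7 from 5306790 to 5425414 on the minus strand) encodes a chromatin protein that reads a silencing histone mark. It stood at 4.32, 4.49 and 4.97 FPKM with circ_0005358, against 2.68, 2.73 and 3.04 FPKM with vector. Every circ_0005358 library lay above every vector library, with a ratio of 1.63 (log2 fold change 0.55, standard error 0.0753, limma adjusted p = 0.0113). PMS2 (ENSG00000122512, chromosome 7 from 5973239 to 6009125 on the minus strand), a DNA mismatch repair gene, stood at 5.52, 5.38 and 5.76 FPKM with circ_0005358 and at 6.86, 6.66 and 6.92 FPKM with vector, with no overlap (log2 fold change -0.25, standard error 0.0544, limma adjusted p = 0.0419). The annotation lists 11 pseudogenes of PMS2, and the highest row that holds one averaged 9.24 FPKM. Such a row can carry other genes too, so the pseudogene's part in it is not known. The values of PMS2 are therefore uncertain.

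The other genes of this group did not pass. PHF14, a chromatin reader gene, stood at 3.64, 3.55 and 4.13 FPKM with circ_0005358 and at 5.12, 4.48 and 4.62 FPKM with vector, with no overlap (log2 fold change -0.27, limma adjusted p = 0.0976). SP4 and FOXK1, which encode transcription factors, also had no overlap and log2 fold changes of -0.21 each. BRAT1, a regulator of the DNA damage kinase ATM, lay higher in all circ_0005358 libraries, at 4.91 to 5.31 FPKM against 4.31 to 4.86 FPKM with vector. CBX3 averaged 21.9 ± 1.89 FPKM with circ_0005358 and 22.9 ± 2.78 FPKM with vector (SD, n = 3 each), and RPA3, the small subunit of the single-stranded DNA binding complex, averaged 5.0 ± 0.435 FPKM with circ_0005358 and 4.72 ± 0.422 FPKM with vector. MAD1L1, a spindle checkpoint gene, and CDCA7L, a MYC partner, had log2 fold changes of -0.03 and 0.07.

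None of the 5 ubiquitin genes and none of the 7 genes of mitochondria, metabolism and other roles passed limma's test. At an unadjusted p under 0.05, USP42 was lower among the ubiquitin genes, and TOMM7 and GLCCI1 were lower and HIBADH higher among the others. At the same level 11.6% of all tested loci were lower and 15.7% higher. FBXL18, a substrate receptor of a ubiquitin ligase, stood at 3.05, 5.63 and 3.30 FPKM with circ_0005358 and at 4.63, 2.36 and 2.08 FPKM with vector. KBTBD2, an adaptor of a cullin ligase, stood at 7.63, 9.18 and 2.53 FPKM with circ_0005358 and at 3.49, 7.42 and 3.23 FPKM with vector, so both had overlapping groups. Their log2 fold changes of 0.33 (standard error 0.305) and 0.32 (standard error 0.489) became -0.06 and -0.16 when circ_0005358 replicate 2 and vector replicate 3 were dropped together. USP42, a deubiquitinase gene, had no overlap at 2.63 to 3.23 FPKM with circ_0005358 and 3.46 to 3.65 FPKM with vector (log2 fold change -0.22), and RNF216 and KLHL7 had log2 fold changes of -0.01 and -0.18. RNF216 averaged 3.73 FPKM over the 6 libraries. The row that holds its pseudogene also carries RBAK and averaged 4.46 FPKM, so the part of the pseudogene in it is not known. The level of RNF216 is therefore uncertain where reads could be split between copies.

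TOMM7, a small subunit of the mitochondrial import channel, stood at 6.21, 4.33 and 6.53 FPKM with circ_0005358 and at 8.48, 8.77 and 7.50 FPKM with vector, with no overlap (log2 fold change -0.48, standard error 0.151, limma adjusted p = 0.109). GLCCI1, a gene induced by glucocorticoids in thymocytes of mice, shares its row with UMAD1 and stood at 3.29, 3.11 and 3.40 FPKM with circ_0005358 and at 5.96, 3.92 and 5.18 FPKM with vector. It did not pass (log2 fold change -0.48, limma adjusted p = 0.088), and without vector replicate 2 its adjusted p was 0.0345, the lowest over its settings, with 0.339 the highest. HIBADH, an enzyme of valine breakdown, lay higher in all circ_0005358 libraries, at 46.3, 48.5 and 47.2 FPKM against 43.2, 43.2 and 43.7 FPKM with vector (log2 fold change 0.12, standard error 0.0442, limma adjusted p = 0.146). SCRN1, a regulator of exocytosis in mast cells, stood at 51.1, 44.6 and 47.7 FPKM with circ_0005358 and at 57.1, 47.5 and 56.3 FPKM with vector, with overlap. NUDT1, which clears oxidized nucleotides, ANKMY2 and GGCT had log2 fold changes of -0.32, -0.14 and 0.06.

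**Figure D1:**
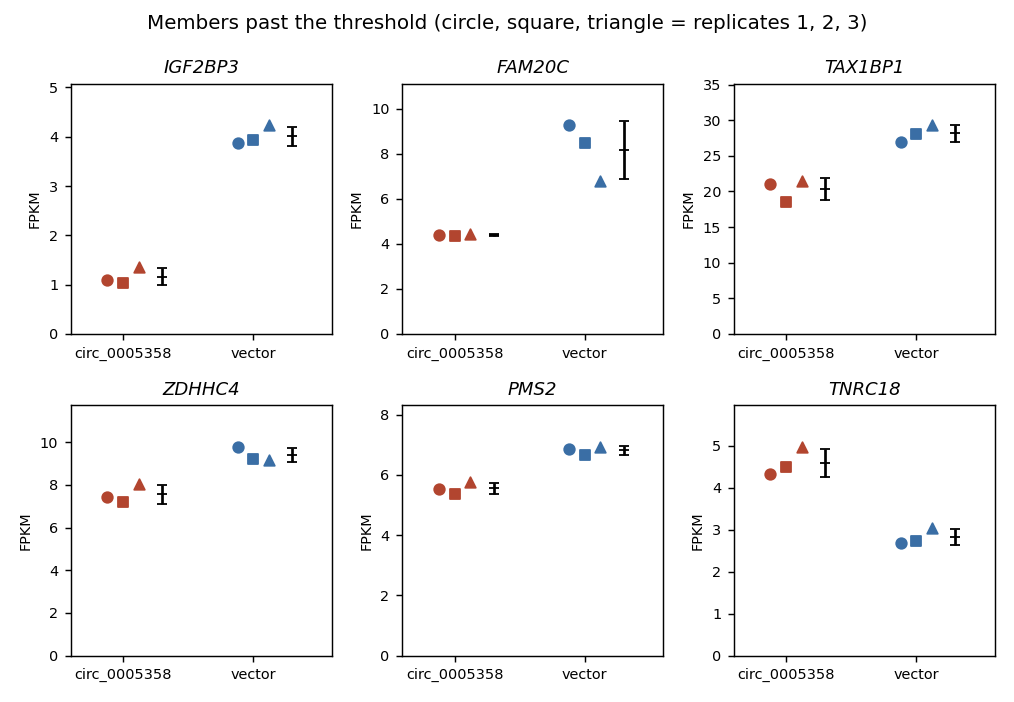
FPKM of the 6 members past the threshold in each library, with circ_0005358 left of vector; bars give the mean and SD of 3 libraries. IGF2BP3, FAM20C, TAX1BP1, ZDHHC4 and PMS2 lie lower and TNRC18 higher with circ_0005358, with no overlap, and IGF2BP3 has the lowest ratio, 0.29, with means of 1.16 and 4.01 FPKM.

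Of the 6 calls, 5 were lost when some single library was left out. The IGF2BP3 call held in the 15 alternatives in which the row was tested, with adjusted p between 0.00112 and 0.0459. FAM20C missed the threshold when vector replicate 2 was left out (limma adjusted p = 0.0634), and when circ_0005358 replicate 1, 2 or 3 was (0.0516, 0.0523 and 0.0588), over a range of 0.00942 to 0.0769. TNRC18 missed it when vector replicate 1 or 2 was left out (0.051 and 0.055), over a range of 0.00902 to 0.088. TAX1BP1 missed it when vector replicate 1, 2 or 3 was left out (0.0581, 0.074 and 0.0697), over a range of 0.0172 to 0.0912. PMS2 and ZDHHC4 missed it whichever of the 6 libraries was left out, with adjusted p up to 0.193 and 0.182 over all settings and at least 0.0336 and 0.0342. With no filter on low values, where more loci were tested, TAX1BP1 (0.0563), PMS2 (0.123) and ZDHHC4 (0.13) missed the threshold too. When circ_0005358 replicate 2 and vector replicate 3 were dropped together, TNRC18 (0.088), TAX1BP1 (0.0884), PMS2 (0.193) and ZDHHC4 (0.182) did. Each of the 6 genes kept its direction in every alternative in which it was tested.

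Of the 53 tested rows, 36 (67.9%) had a negative log2 fold change, against a background of 47% of all tested loci. Their median log2 fold change was -0.14, with quartiles of -0.29 and 0.06, against 0.02 over all tested loci, and the median ratio of group means was 0.892, against 1.02. In 17 rows (32.1%) all circ_0005358 libraries lay below all vector libraries, against a background of 15.9% of all tested loci. In 4 rows (7.55%), those of BRAT1, TNRC18, BZW2 and HIBADH, all lay above, against 19.8%. Within 0.3 of 0 on the log2 scale lay 35 rows, with 13 below and 5 above. Because the stretch was picked for low fold changes, these counts describe it and were not tested.

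**Figure D2:**
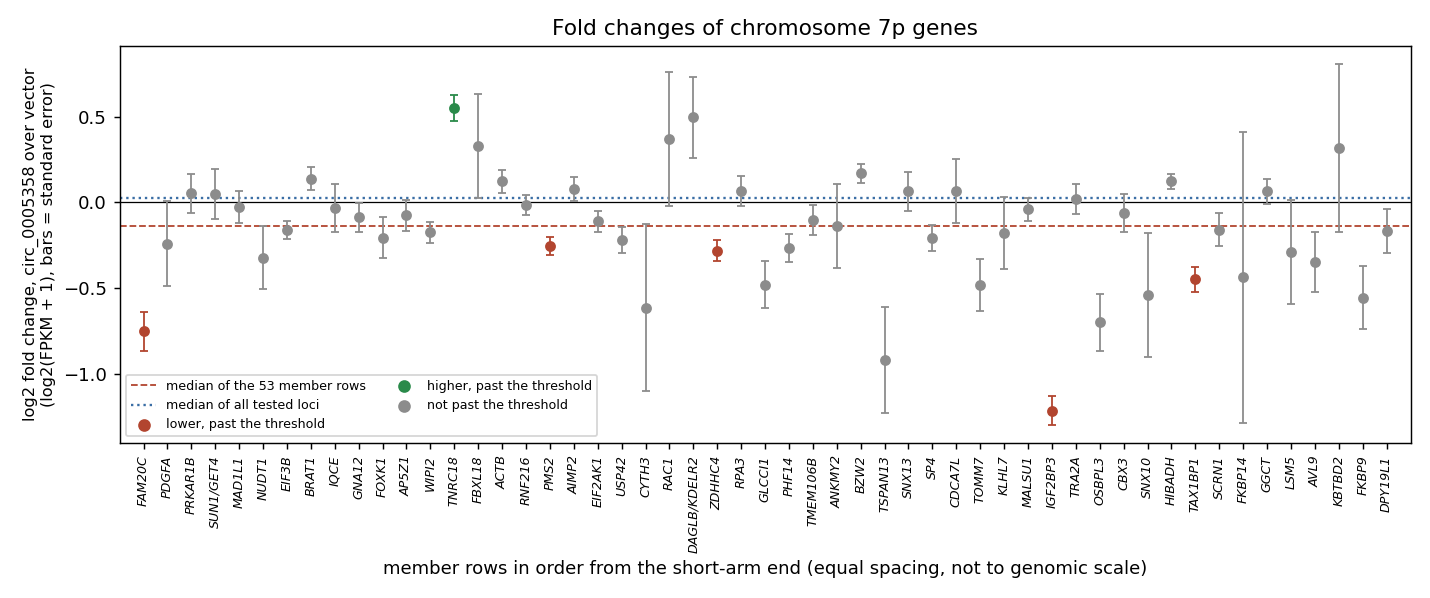
Log2 fold change, circ_0005358 over vector, of the 53 tested member rows in their order from the tip of the short arm, on the log2(FPKM + 1) scale; bars are standard errors, and the dashed and dotted lines are the medians of the members (-0.14) and of all tested loci (0.02). Of the rows 35 lie within 0.3 of 0, with IGF2BP3 (-1.22), TSPAN13 (-0.92), FAM20C (-0.75) and OSBPL3 (-0.70) at the low end and TNRC18 (0.55) at the high end.

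Some neighbours had unlike fold changes. BZW2 and TSPAN13 lie next to each other among the members and had log2 fold changes of 0.17 and -0.92, and TRA2A and IGF2BP3 had ones of 0.02 and -1.22. In 3 pairs of members the annotated starts on opposite strands lie within 1000 bases. PMS2 and AIMP2 start 120 bases apart, and a RefSeq start of AIMP2 at 6009272 lies inside the PMS2 window printed above, yet their log2 fold changes were -0.25 and 0.08. ANKMY2 and BZW2, 314 bases apart, had ones of -0.14 and 0.17, while LSM5 and AVL9, 143 bases apart, had ones of -0.29 and -0.35. The difference between the genes of a pair was not tested.

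The members are only part of the stretch, and 55 other tested loci lie between the first and the last of them. These loci, which the list leaves out, had a median log2 fold change of -0.13, and 40 of them (72.7%) were negative. Over all tested loci the median was 0.02 and 47% were negative. The 55 other loci lie inside the stretch that was picked for low fold changes. Their values therefore only describe it and support nothing about it. Among the 55 other loci, IL6, a cytokine gene, BMPER, which encodes a BMP-binding protein, TWIST1, a transcription factor of mesenchymal cells, and FAM126A fell. CPVL, a carboxypeptidase gene, rose. The genes that fell or rose are named because they passed the threshold, after their values were seen. BMPER stood at 0.272, 0.379 and 0.256 FPKM with circ_0005358 and at 1.44, 1.303 and 1.54 FPKM with vector, so it met the filter through the vector libraries alone and had to differ. IL6 stood at 0.987, 1.51 and 1.74 FPKM with circ_0005358 and at 5.55, 4.61 and 4.79 FPKM with vector. Called loci made up 9.09% of these neighbours, beside 11.4% of all tested loci. By direction 7.27% of the neighbours were called lower and 1.82% higher, beside 4.96% and 6.41% of all tested loci. Members and neighbours together, 108 loci, had a median of -0.14, with 70.4% negative.

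Further along the chromosome the fold changes turned. In the bins of 10 Mb from 0 to 40 Mb, which hold all members, the medians of all tested loci were -0.10, -0.12, -0.14 and -0.16. From 40 to 50 Mb the median was -0.07 and from 50 to 60 Mb it was 0.03. Over the 10 bins from 60 to 160 Mb, on the long arm, the medians ran from 0.03 to 0.29. Of the 340 tested loci from 60 Mb on, 26.8% were negative, with a median of 0.16. Of these loci 1.76% were called lower and 15.9% higher, beside 4.96% and 6.41% of all tested loci. Within the stretch the members of each bin spread widely, from -0.75 to 0.55 in the first bin of 27 and from -1.22 to 0.12 in the third of 13.

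**Figure D3:**
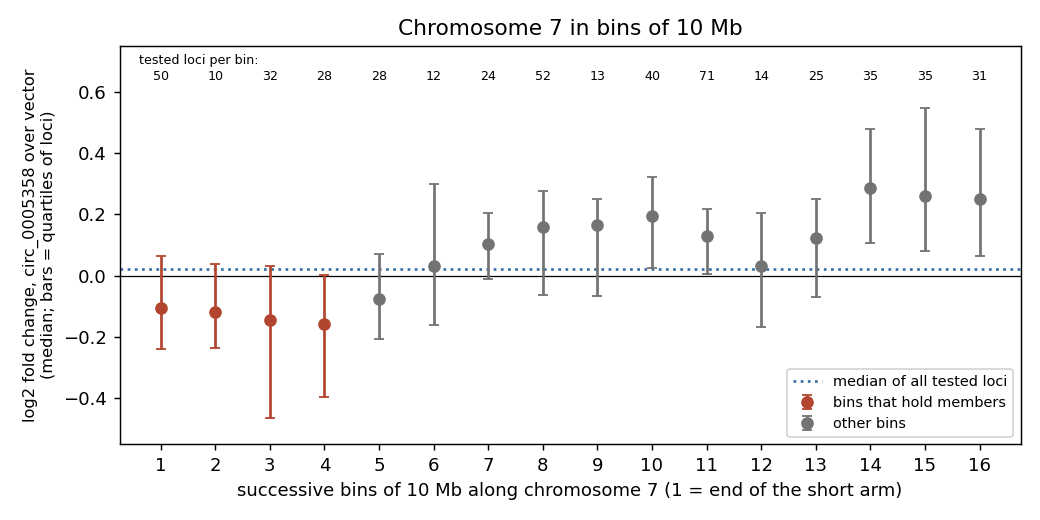
Median log2 fold change, circ_0005358 over vector, of all tested loci in successive bins of 10 Mb along chromosome 7 from the tip of the short arm, with quartiles of loci as bars and the number of loci above each bin. The 4 bins that hold members have medians from -0.10 to -0.16, and the last 3 bins from 0.25 to 0.29.

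Library by library, the member rows were compared with their own mean over the 6 libraries. The median deviation on the log2(FPKM + 1) scale was -0.04, -0.10 and -0.03 for circ_0005358 replicates 1 to 3 and 0.10, 0.04 and 0.08 for vector replicates 1 to 3. The groups did not overlap, which follows in part from the choice of the stretch. Over all tested loci the same medians were 0.01, 0.03 and 0.03 with circ_0005358 and -0.01, -0.01 and 0.01 with vector. The lowest value belonged to circ_0005358 replicate 2, whose relative depth of 71.1% was the lowest, and the part of depth in it was not tested. Without circ_0005358 replicate 2 the median log2 fold change of the members was -0.10, without circ_0005358 replicate 1 it was -0.09, and when circ_0005358 replicate 2 and vector replicate 3 were dropped together it was -0.09, with 38 rows negative.

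**Figure D4:**
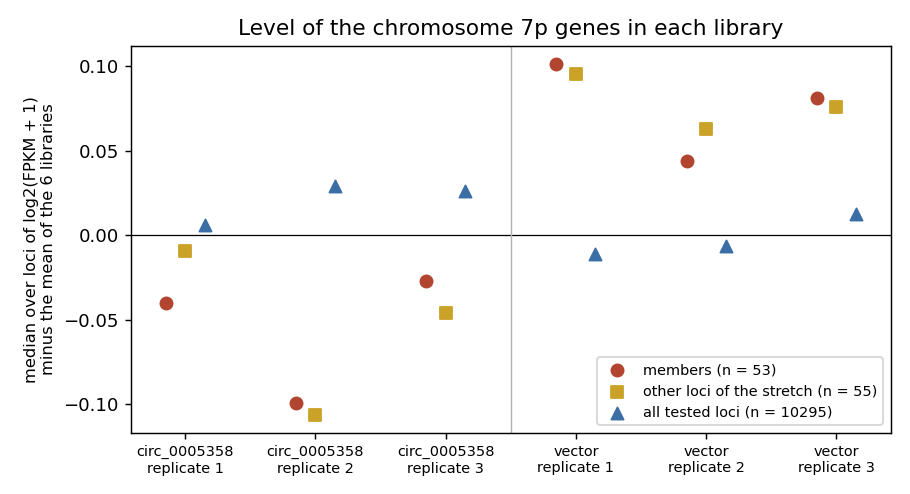
Median deviation of log2(FPKM + 1) from the mean of the 6 libraries in each library, for the 53 member rows, the 55 other tested loci of the stretch and all 10295 tested loci. Members lie between -0.10 and -0.03 in the circ_0005358 libraries and between 0.04 and 0.10 in the vector libraries, while all loci stay within 0.03 of 0.

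Some rows varied widely within a group. In 9 of the 53 member rows (17%) the highest library of a group exceeded the lowest more than 2-fold, in circ_0005358, in vector or in both, against 18.1% of the 10146 tested loci above 0 in all libraries. FKBP14, a prolyl isomerase gene of collagen folding, was the widest, at 10.2, 1.18 and 1.28 FPKM with circ_0005358 and at 11.1, 2.99 and 1.88 FPKM with vector. Replicate 1 was the high library in both groups for FKBP14. The other rows were PDGFA, FBXL18, CYTH3, RAC1, TSPAN13, SNX10, LSM5 and KBTBD2, and the deviating library differed between them: circ_0005358 replicate 1 for CYTH3, replicate 2 for TSPAN13 and LSM5, replicate 3 for PDGFA, and vector replicate 3 for SNX10. By level, the 22 rows under 5 FPKM had a median log2 fold change of -0.08, the 21 rows of 5 to 20 FPKM one of -0.21 and the 10 rows over 20 FPKM one of -0.09.

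**Figure D5:**
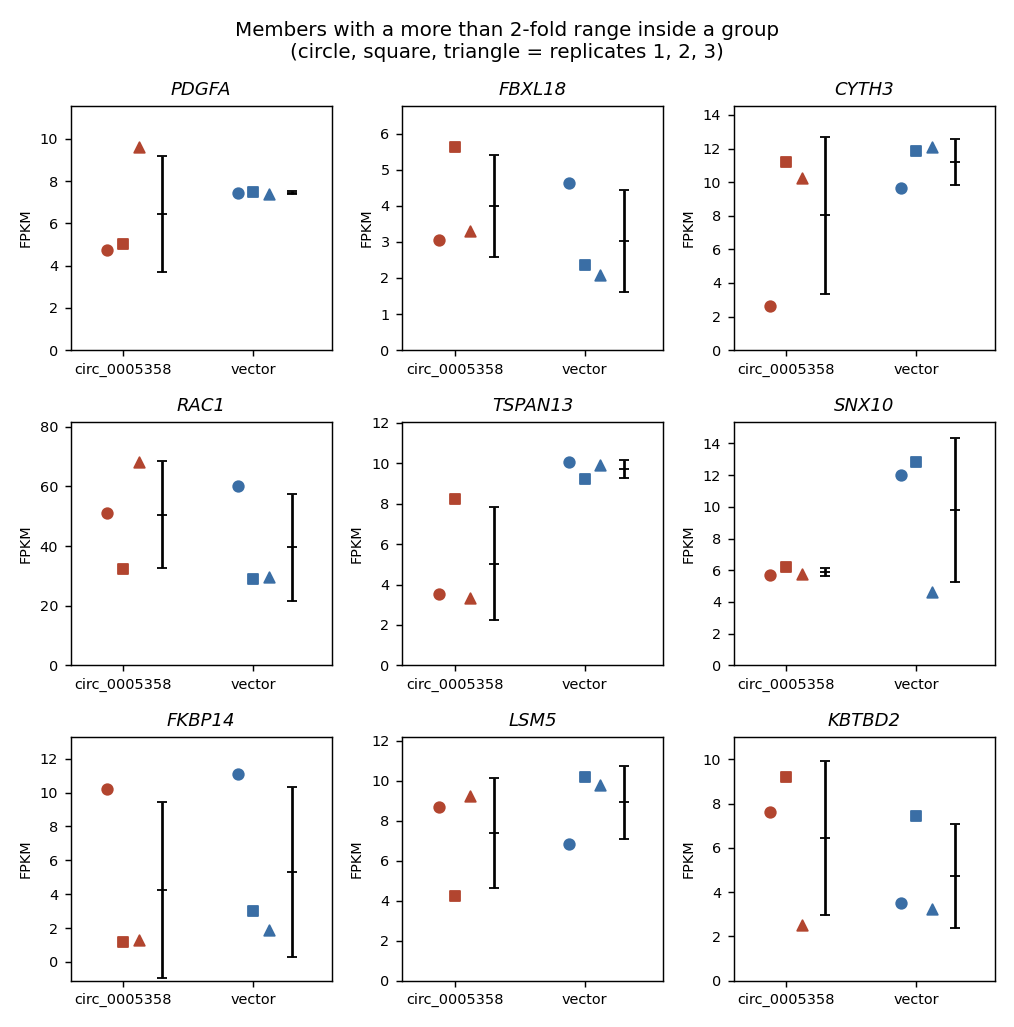
FPKM in each library of the 9 member rows whose range within a group exceeded 2-fold, with circ_0005358 left of vector; bars give the mean and SD of 3 libraries, and a bar may reach below 0 where the SD exceeds the mean. One library stands apart in most panels, such as circ_0005358 replicate 1 at 2.64 FPKM for CYTH3 and vector replicate 3 at 4.6 FPKM for SNX10.

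Partners of the members that are encoded elsewhere were also followed: other subunits of eIF3, the LSM ring, the mitochondrial import channel and the mismatch repair and replication protein A complexes, and close paralogs. Of 67 tested rows, limma called 0 lower and 3 higher, and at an unadjusted p under 0.05 there were 3 lower and 10 higher, beside 11.6% and 15.7% of all tested loci. Their median log2 fold change was 0.05, and 44.8% were negative. Some of these rows also carry other gene names, such as that of PDGFRA with FIP1L1, so their values are not those of the partner alone. With vector replicate 1 left out, 1 row was called lower, that of PRKAR1A, a paralog of PRKAR1B, and its neighbour ARSG. When circ_0005358 replicate 2 and vector replicate 3 were dropped together, RHOA, a relative of RAC1, was called lower. The count of higher calls was 0 without circ_0005358 replicate 1 and 1 without vector replicate 2, vector replicate 3 or circ_0005358 replicate 3. The genes that rose were DAGLA, the paralog of DAGLB, PMS1, a relative of PMS2, and EIF2AK4, a kinase that senses amino acid shortage and shares its target with EIF2AK1. DAGLA stood at 1.45, 1.58 and 1.46 FPKM with circ_0005358 and at 0.776, 0.671 and 0.802 FPKM with vector. It met the filter through the circ_0005358 libraries alone, so a difference between the groups was built into its being tested. PMS1 averaged 6.26 ± 0.186 FPKM with circ_0005358 and 4.61 ± 0.174 FPKM with vector, and EIF2AK4 averaged 10.8 ± 0.736 FPKM with circ_0005358 and 8.06 ± 0.21 FPKM with vector (SD, n = 3 each). Of the partner rows 4.48% were called, against 11.4% of all tested loci, a difference that was not tested. IGF2BP1, the paralog of IGF2BP3, had a log2 fold change of -0.10 and IGF2BP2 lay below the filter, at 0.276 to 0.689 FPKM over the 6 libraries.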

How the data were processed

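PolyA RNA of 6 SiHa libraries, 3 per group, was sequenced, and the authors deposited 1 table of FPKM values, which holds no read counts. The build hg19 and the tools HISAT2 and Trimmomatic are named per the submitters' processing notes. Tool versions, the FPKM program and the gene models behind it were not given in the sources used here. Rows were placed by transcript identifier on GENCODE 29 (GRCh38), which 99.7% of rows allowed, so every position is on GRCh38 and not on the build of the alignment. No read depth is recorded, and relative depth came from the FPKM worth of a single fragment at 17982 single-transcript loci. Rows at 1 FPKM or more in at least 3 libraries were fitted as log2(FPKM + 1) with limma 3.58.1 in R 4.3.3, using an intensity trend in the variance, as two-sided tests adjusted by Benjamini-Hochberg over all tested loci at a threshold of 0.05. Named with values were the 10 lowest, 5 highest and 5 most abundant members and all called ones; any other gene was chosen after its values were seen. The members, role groups and lists were chosen with earlier results of these data known. Alternatives were pseudocounts, filters, scalings, variance model, single-name rows, leaving out each library and a replicate block; 1 more, leaving out 2 libraries, was chosen after the data were seen.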

Additional observations from a re-analysis of the deposited data

How the results depend on the processing

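Under the 16 alternatives the median log2 fold change of the members stayed negative, at -0.139 to -0.0873 with each library left out in turn and at -0.09 without both vector replicate 3 and circ_0005358 replicate 2. With 1 library left out, 33 to 39 member rows were negative, 2 to 3 were called lower and 0 to 2 higher, 485 to 761 loci were called across the table, the median of the other loci of the stretch was -0.18 to -0.10, and 0 to 1 partner was called lower and 0 to 3 higher. With no filter on low values 2 members were called lower and 591 loci in all. With FPKM of at least 5 in 3 libraries 32 member rows remained in the test, 21 of them negative and 0 called higher. The higher call was lost because TNRC18 was no longer tested. FAM20C met this filter through the vector libraries alone, so a difference between its groups was built in. The median of the other loci of the stretch was -0.038, and the cause of that was not tested. Quantile normalization gave these loci a median of -0.17. Without both vector replicate 3 and circ_0005358 replicate 2, 198 loci were called across the table, the other loci of the stretch had a median of -0.0844, 4 members were called lower (IGF2BP3, FAM20C, TSPAN13 and SNX10), 1 partner was called lower and 0 higher, and FBXL18 and KBTBD2 turned to -0.0599 and -0.157. With 1 library left out FBXL18 ranged from 0.107 to 0.5996 and KBTBD2 from 0.0231 to 0.788. With the replicate block 1 member, IGF2BP3, was called lower and 0 higher, the other 5 having adjusted p of 0.0769 (FAM20C), 0.0912 (TAX1BP1), 0.0588 (TNRC18), 0.149 (PMS2) and 0.16 (ZDHHC4), 259 loci were called across the table and 0 partners higher. Same-numbered libraries correlated in their deviations at 0.0644, 0.0481 and 0.0781, each the best match of its library, as a hint from the data and not from the design, since the labels share only a number. OSBPL3 passed after rescaling (adjusted p = 0.0474), after quantile normalization (0.0406) and without circ_0005358 replicate 1 (0.0261), over a range of 0.0261 to 0.16. The depth of circ_0005358 replicate 2, 71.1% of the deepest, makes its values near 1 FPKM the least precise.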
